A study of Mus musculus with 6 samples.

Results

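The T cell receptor segments counted in sorted group 3 innate lymphoid cells (ILC3s) were the rows of a deposited gene count table whose symbol names a variable (V), joining (J) or constant (C) segment of the alpha, beta, gamma or delta chain and which held at least 30 counts over all 6 libraries. Of 264 such segment rows among 55401 gene identifiers, 54 met the minimum. They comprised 14 of 15 gamma rows, 29 of 51 beta rows, 7 of 9 delta rows and 4 of 189 alpha rows, or 8 C, 19 J and 27 V segments. The members were chosen by their summed counts, so that being counted is no finding. Just inside the minimum lay Trav6n-7, Trbv13-3 and Trdv5 with 30, 34 and 35 counts, and just outside it Trav6d-7, Trav14n-1 and Trav15-1-dv6-1 with 29, 28 and 28.

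ILC3s are lymphocytes of mucosal tissue that release interleukin 22 and interleukin 17 and carry no antigen receptor on their surface. RNA was sequenced from 3 libraries of cells pretreated with PEox and 3 libraries of cells pretreated with vehicle. Per the labels, both groups were wild type ILC3s of the small intestine lamina propria, and the protocol text speaks of pups. The labels do not spell out PEox, a name often used for oxidised phosphatidylethanolamines. Dose, exposure and age in days are not stated in the labels. Nothing in them says whether each library had its own animals, so the spread behind each p-value is that of these libraries and may be technical.

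A T cell builds its receptor by cutting and joining DNA: a V and a J segment, with a diversity (D) segment between them in the beta and delta chains, are fused and then spliced at the RNA level to a C segment. Alpha pairs with beta and gamma with delta, and the chains reach the surface only together with the CD3 chains. Loci that have not been rearranged can also be transcribed, which gives RNA of C and J segments without a fused V segment. Transcripts of C segments are known in mouse innate lymphoid cells. In mouse the gamma segments lie on chromosome 13 in 4 clusters, each with its own J and C segment, the beta segments lie on chromosome 6 with a pair of J and C clusters, and the delta segments lie inside the alpha locus on chromosome 14.

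Sequences of the gamma C segments, read from the GENCODE M21 transcripts (GRCm38), as are all sequences here, show how alike the segments of this locus are, which include the most counted member, Tcrg-C1. The first 90 bases of the constant region are given 5′ to 3′, with capitals at bases that differ from Tcrg-C1.
Tcrg-C1: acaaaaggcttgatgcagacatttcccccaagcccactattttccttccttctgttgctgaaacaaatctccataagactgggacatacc
Tcrg-C2: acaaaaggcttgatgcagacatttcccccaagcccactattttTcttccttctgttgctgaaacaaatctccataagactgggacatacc
Tcrg-C3: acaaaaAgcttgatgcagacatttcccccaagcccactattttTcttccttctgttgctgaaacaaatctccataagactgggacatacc
Tcrg-C4: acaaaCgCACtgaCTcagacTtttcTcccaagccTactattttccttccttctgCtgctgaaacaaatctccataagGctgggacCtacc
Within this stretch Tcrg-C2 differed from Tcrg-C1 at 1 base, Tcrg-C3 at 2 and Tcrg-C4 at 12. Over the aligned transcripts Tcrg-C1 was 96.1% identical to Tcrg-C2, 97.2% to Tcrg-C3 and 71.3% to Tcrg-C4. No window of 150 bases, the read length, was shared letter for letter among the gamma C transcripts, whereas 18.7% of such windows of Trbc1 also stood in Trbc2. Counts of Trbc1 and Trbc2 are uncertain beside each other, since nothing states how reads with several matches were counted.

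J segments of the gamma locus were also alike. Trgj1 and Trgj2, shown with capitals where Trgj2 differs, had 4 differences in 60 bases.
Trgj1: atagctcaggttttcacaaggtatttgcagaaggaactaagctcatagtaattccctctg
Trgj2: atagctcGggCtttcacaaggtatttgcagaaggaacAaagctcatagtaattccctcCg
Among the beta J segments, 4 are shown because they carry the contrast described further on: Trbj1-1 and Trbj2-1 open the first and the second cluster, and Trbj1-7 and Trbj2-6 are examples without the usual joining motif. Capitals mark a motif common among J segments, phenylalanine and glycine, any residue and glycine, searched as the letters TTN, GGN, NNN and GG in a row.
Trbj1-1: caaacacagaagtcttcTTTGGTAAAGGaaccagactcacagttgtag
Trbj2-1: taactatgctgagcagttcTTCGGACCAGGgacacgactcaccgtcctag
Trbj1-7: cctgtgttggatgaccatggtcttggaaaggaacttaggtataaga
Trbj2-6: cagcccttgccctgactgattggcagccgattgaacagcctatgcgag
The motif was searched on both strands. It stood on the coding strand of 59 of all 80 J rows in the table (73.8%) and of 13 of the 19 J members, but not of Trbj1-6, Trbj1-7, Trbj2-6, Trgj1, Trgj2 and Trgj4, and on the reverse strand of 0 rows. A match describes the letters only.

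The libraries held 56252806 to 57532484 counts in PEox and 59524577 to 66849230 in Vehicle. The protocol text names sorted epithelial cells, whereas the cell type label names ILC3s, and the markers went with the label: 10 ILC3 genes summed to between 6090 and 6176 CPM in PEox libraries and between 9860 and 10060 in Vehicle libraries, against 58.3 to 66.1 and 97.4 to 110.9 CPM for 6 epithelial genes. CPM are counts scaled to a common library size by TMM, a trimmed mean of ratios between libraries. The ILC3 sum was led by Il22, with 2445 to 2554 CPM in PEox and 6660 to 6787 in Vehicle. The difference of the sums between the groups followed this gene. For the counts of genes called that follow, 18.8% of all tested genes were called lower and 18.3% higher. Of the 10 ILC3 genes 3 were called lower, 2 higher (Kit and Il17f) and 5 were not called. Markers of other cell types were also present. The 12 T cell genes summed to 68.7 to 80.8 CPM in PEox and 147.1 to 156.8 in Vehicle, with 6 called lower, 1 higher and Cd8a at 0 in every PEox library. The 6 gamma delta T cell genes, of which ILC3s also express several, summed to 985.7 to 1064 CPM in PEox and 2699 to 2911 in Vehicle. Most of this sum came from Tmem176a and Tmem176b, which are among those that ILC3s express. Tmem176a had 266.5 to 302.6 CPM in PEox and 997.8 to 1102 in Vehicle, and Tmem176b 655.7 to 703.6 and 1515 to 1624. Of the 6 genes, 4 were called lower, whereas Sox13 and Zbtb16 were not called. The 6 B cell genes summed to 37.3 to 43.7 CPM in PEox and 255.2 to 273.7 in Vehicle, all 6 called lower, and the 7 natural killer and ILC1 genes to 84.2 to 88.4 and 307.7 to 322.1, with 6 called lower. Of 4 mast cell genes 3 were called lower, with sums of 8.95 to 13.6 CPM in PEox and 45.7 to 49.5 in Vehicle. Of 5 myeloid genes 1 was called lower, and of 5 tested epithelial genes 3. Some genes called lower, such as Cd8a, Cd8b1 and Pax5, passed the low count filter described below through their Vehicle counts. The part of these cell types in the results below was not tested. In bulk samples, fewer cells of a type and less RNA per cell cannot be told apart.

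Taken over all members, segments took a smaller share of counts in PEox, and no segment was called higher in the test as described below. The members together took 0.240%, 0.239% and 0.220% of all counts in PEox libraries 1 to 3, against 0.311%, 0.319% and 0.314% in Vehicle libraries 1 to 3. Of the 54 members, 46 passed the filter on low counts and were tested by edgeR's quasi-likelihood test, with p-values adjusted over all 18253 tested genes by the Benjamini-Hochberg method. At an adjusted p under 0.05, 16 of the 46 fell, 0 rose and 30 were not called. Over all tested genes, 18.8% were called lower and 18.3% higher. In an alternative chosen after seeing the data, in which the dependence of each library on exon length and base composition (GC content) was taken out, 9 members were called lower and 2 higher. The median log2 fold change of the tested members was -0.58, beside 0.00 over all tested genes. The CPM values of PEox lay below those of Vehicle without overlap for 25 of the 46, and above them for 0, where the shares of all tested genes were 26.5% and 24.1%. Of these 25, 6 were beta V segments, and the median includes all 11 tested beta V segments. Some beta V segments passed the low count filter through their Vehicle counts, which limits both figures. The 8 members that were not tested had 30 to 61 counts in all.

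**Figure D1:**
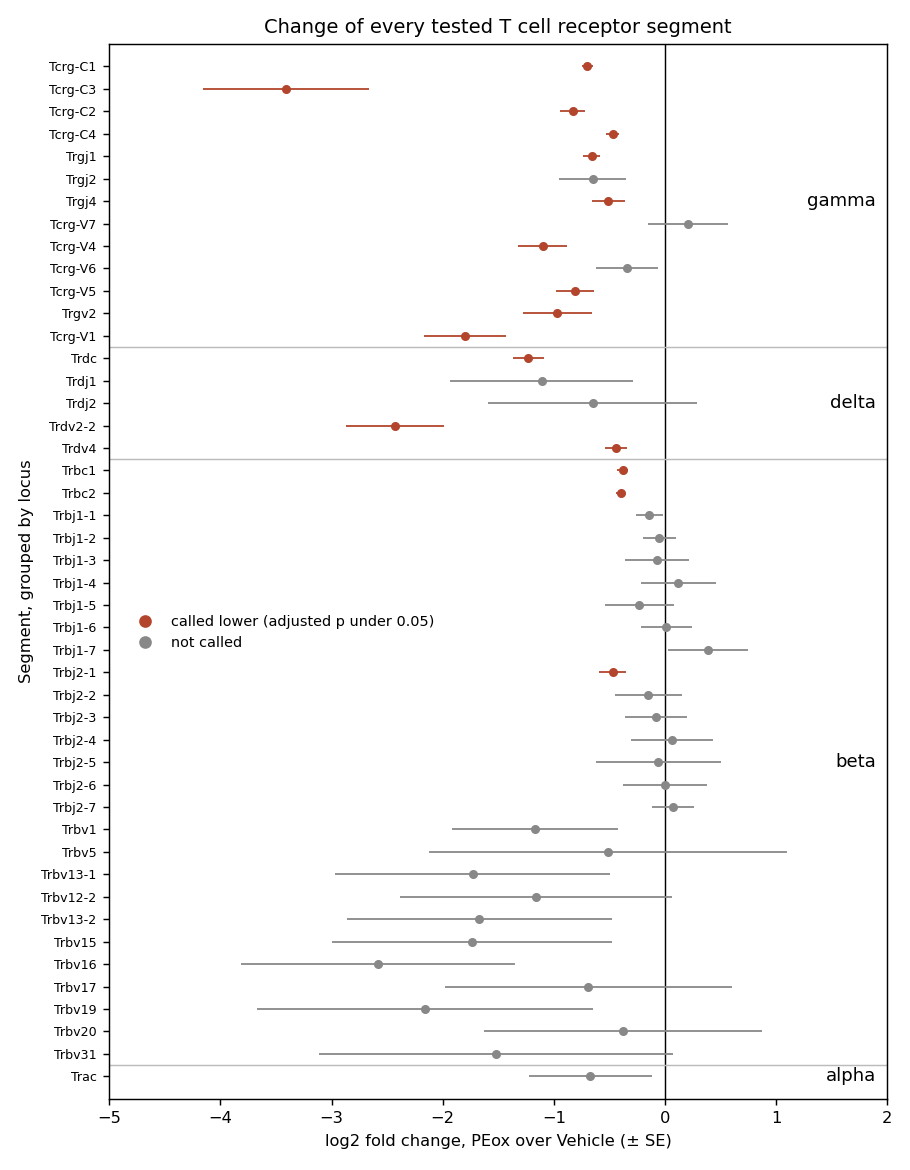
Log2 fold change of PEox over Vehicle with its standard error (horizontal axis) for the 46 tested segments, grouped by locus and ordered as C, J and V segments. Red points were called lower and grey points were not called; 10 of the 13 gamma segments are red, whereas 13 of the 14 beta J segments are grey and lie near 0.

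The gamma locus held most of these counts and most of the calls. Of its 13 tested members 10 fell and 0 rose, with a median log2 fold change of -0.70. Over all tested genes, 18.8% were called lower and 18.3% higher. Gamma segments made up 63.4%, 63.9% and 62.1% of the members' counts in PEox libraries 1 to 3, and 67.3%, 67.8% and 67.1% in Vehicle libraries 1 to 3. In both groups nearly all gamma counts fell on C segments, with C shares of 94.7% to 94.8% in PEox and 94.8% to 94.9% in Vehicle.

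Tcrg-C1, the constant segment of the first gamma cluster (Trgc1 in RefSeq), stood at 984, 1023 and 890 CPM in PEox libraries 1 to 3 and at 1580, 1595 and 1545 CPM in Vehicle libraries 1 to 3. Every PEox library lay well below every Vehicle library. The log2 fold change was -0.70 ± 0.05 (SE; edgeR, adjusted p = 3.13e-05). Tcrg-C4, the constant segment of the cluster that holds Tcrg-V1 and Trgj4, had 363, 337 and 310 CPM in PEox and 457, 467 and 476 CPM in Vehicle. It fell by less on the log2 scale, by 0.47 ± 0.06 (SE; edgeR, adjusted p = 0.000458), again with no overlap between the groups, and its change was -0.27 (adjusted p = 0.00668) once length and GC content were taken out. Tcrg-C2 had 26.5, 25.7 and 31.1 CPM in PEox and 45.4, 53.1 and 49.7 CPM in Vehicle, a change of -0.83 ± 0.11 in log2 (SE; edgeR, adjusted p = 0.000541).

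Tcrg-C3 varied more between libraries of a group than any other gamma C segment. It had 3.42, 1.91 and 0.925 CPM in PEox libraries 1 to 3 and 4.68, 38.0 and 23.8 CPM in Vehicle libraries 1 to 3. Vehicle library 1 lay close to PEox library 1 and far from the other Vehicle libraries, although the groups did not overlap. The log2 fold change was -3.41 ± 0.75 (SE; edgeR, adjusted p = 0.00811), and from -3.96 without PEox library 1 to -2.77 without Vehicle library 2, but limma-voom did not call it (-3.11, adjusted p = 0.0812). Tcrg-V3, the V segment of the same cluster, had 47 counts in all, and the Trgj3 row was below the minimum.

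**Figure D2:**
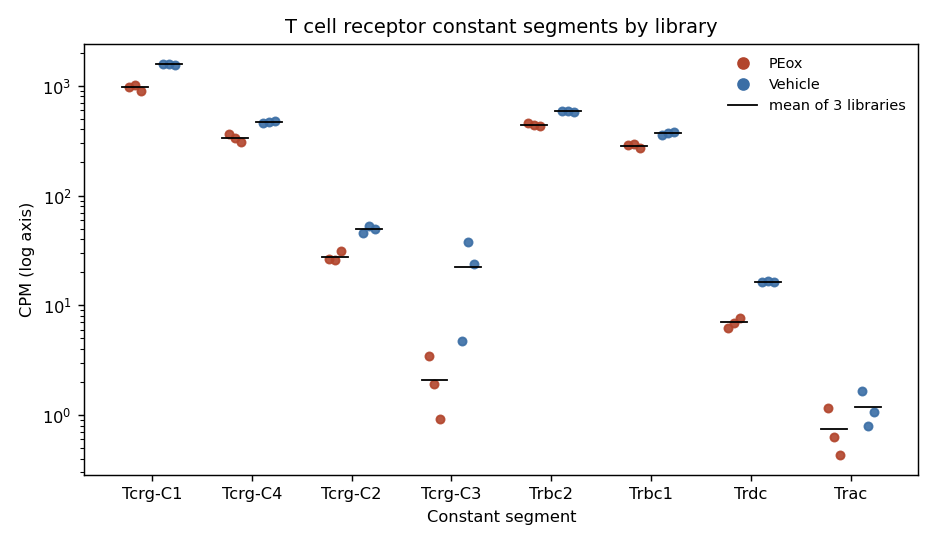
CPM (log axis) of the 8 constant segments in each library, PEox left and Vehicle right, with a bar at the mean of 3 libraries. Tcrg-C1 lies between 890 and 1023 CPM in PEox and between 1545 and 1595 in Vehicle, Tcrg-C3 spreads most among the Vehicle libraries, and the Trac values of the groups overlap near 1 CPM.

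Of the 3 gamma J members 2 fell, where 18.8% of all tested genes were called lower. Trgj1, which joins V segments of the first cluster to Tcrg-C1, had 42.3, 45.1 and 39.2 CPM in PEox and 65.8, 67.8 and 66.6 CPM in Vehicle. It fell by 0.66 ± 0.08 in log2 units (SE; edgeR, adjusted p = 0.000338), and the groups were far apart; the change was -0.29 once the dependence on segment length and GC content was taken out (adjusted p = 0.0142). Trgj4 had 11.2, 10.4 and 8.64 CPM in PEox and 14.3, 14.5 and 14.2 CPM in Vehicle, and fell by 0.51 ± 0.15 (SE; edgeR, adjusted p = 0.0263). That call was lost under library size scaling (adjusted p = 0.0788) and without any 1 of the Vehicle libraries 1 to 3 (0.082, 0.0888 and 0.0771) or PEox library 3 (0.0581), and the log2 fold change was 0.01 without that dependence. Trgj2 had 1.24 to 1.69 CPM in PEox and 2.17 to 2.47 CPM in Vehicle and was not called (log2 fold change -0.65, edgeR adjusted p = 0.138).

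The ratio of J to C counts within the gamma locus stayed narrow. For every 100 C counts there were 4.01, 4.09 and 4.02 J counts in PEox libraries 1 to 3 and 3.94, 3.94 and 3.97 in Vehicle libraries 1 to 3, ranges that differed slightly and did not overlap. The V counts per 100 C counts were 1.58, 1.37 and 1.43 in PEox and 1.58, 1.55 and 1.39 in Vehicle, so that the groups overlapped. Taken by cluster, the ratio did not overlap for the cluster of Tcrg-V1 and Tcrg-C4, at 0.156 to 0.229 in PEox and 0.364 to 0.533 in Vehicle. In the other clusters it overlapped, and none of these ratios carries a test. V and J rows together thus took a small share of gamma counts in either group; these shares depend on the length of each segment.

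Among gamma V segments, 4 of 6 tested fell, and the other 2 were not called, where 18.8% of all tested genes were called lower. Tcrg-V5, the V segment of gamma delta T cells of the mouse epidermis, had 7.73, 5.97 and 7.98 CPM in PEox and 12.7, 12.9 and 12.5 CPM in Vehicle, a change of -0.81 ± 0.17 in log2 (SE; edgeR, adjusted p = 0.00528). Tcrg-V4, used by gamma delta T cells of lymphoid tissue, had 2.40, 2.49 and 2.33 CPM in PEox against 5.09, 5.77 and 4.61 CPM in Vehicle, and fell by 1.10 ± 0.22 (SE; edgeR, adjusted p = 0.00512). Neither segment overlapped between the groups. Tcrg-V1 had 0.629, 0.524 and 0.711 CPM in PEox against 2.27, 2.49 and 1.73 CPM in Vehicle, which was the largest called change of a gamma V segment, at -1.80 ± 0.37 (SE; edgeR, adjusted p = 0.00603). With length and GC content taken out, Tcrg-V5 was no longer called (-0.36, adjusted p = 0.154), nor was Trgv2 (-0.59, adjusted p = 0.188).

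Trgv2 had 3.03, 1.54 and 1.93 CPM in PEox against 4.77, 4.11 and 3.82 CPM in Vehicle, and fell by 0.97 ± 0.31 (SE; edgeR, adjusted p = 0.0408); the call was lost when any 1 of PEox libraries 2 and 3 or of the Vehicle libraries was left out (adjusted p 0.0834 to 0.142), without the low count filter (0.0607) and with library size scaling (0.0681). Tcrg-V6, the V segment of gamma delta T cells that make interleukin 17 in several tissues, had 4.08, 5.01 and 2.59 CPM in PEox and 5.37, 4.64 and 4.75 CPM in Vehicle, and the groups overlapped (log2 fold change -0.34 ± 0.28, SE; adjusted p = 0.402, edgeR). Tcrg-V7, the V segment most used by gamma delta T cells within the intestinal epithelium, had 3.45, 3.47 and 1.93 CPM in PEox and 2.77, 3.23 and 1.64 CPM in Vehicle. It was not called (log2 fold change 0.21 ± 0.36, SE; adjusted p = 0.706, edgeR), and the spread within each group was wider than the difference. Tcrg-V4, Tcrg-V5, Tcrg-V6 and Tcrg-V7 lie within the span of a gene annotated on the other strand, Gm31887, which had 573 to 651 counts in PEox and 1136 to 1251 in Vehicle. Nothing states whether the counting used strand, so reads of these genes cannot be told apart.

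The beta locus gave a different picture by segment type. Both of its C segments fell, its J segments mostly did not pass the test, and its V segments were barely counted. Of 27 tested beta members 3 fell, 0 rose and 24 were not called, where 18.8% of all tested genes were called lower. The median log2 fold change was -0.38, which includes V segments that passed the low count filter through their Vehicle counts.

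Trbc1 had 287, 292 and 272 CPM in PEox libraries 1 to 3 and 358, 371 and 377 CPM in Vehicle libraries 1 to 3. Trbc2 had 457, 441 and 430 CPM in PEox and 587, 584 and 580 CPM in Vehicle. Both segments were lower in each PEox library than in any Vehicle library. The log2 fold changes were -0.38 ± 0.05 for Trbc1 and -0.40 ± 0.04 for Trbc2 (SE; edgeR, adjusted p = 0.000417 and 0.000127). Once the length and GC trend was taken out, both lay near 0, at 0.01 (edgeR adjusted p = 0.876) and 0.02 (adjusted p = 0.666).

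All 14 beta J rows were counted in every library, and 1 of the 14 fell, where 18.8% of all tested genes were called lower. The exception was Trbj2-1, with 12.4, 12.3 and 12.5 CPM in PEox and 17.7, 16.4 and 17.3 CPM in Vehicle, groups that lay clearly apart (log2 fold change -0.47 ± 0.12, SE; adjusted p = 0.0138, edgeR). That call was lost with library size scaling (adjusted p = 0.0543), without Vehicle library 1 (0.0646) and without Vehicle library 3 (0.0544), and its log2 fold change was 0.12 once the length and GC trend was taken out. Trbj1-1, the first J segment of the other cluster, had 15.8, 16.1 and 14.6 CPM in PEox and 17.4, 17.4 and 16.4 CPM in Vehicle. Its groups did not overlap either, yet the log2 fold change of -0.14 ± 0.12 was not called (SE; edgeR, adjusted p = 0.413). For the other 12 the CPM of the groups overlapped, and log2 fold changes ran from -0.23 for Trbj1-5 to 0.39 for Trbj1-7. Over all tested genes, 26.5% lay lower and 24.1% higher in PEox without overlap. Without the length and GC trend, Trbj1-2 (0.52) and Trbj2-7 (0.67) were called higher.

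Trbj1-7 and Trbj2-6, whose sequences above lack the motif, were counted in every library. Trbj1-7 had 1.26, 1.66 and 1.77 CPM in PEox and 1.06, 1.36 and 1.16 CPM in Vehicle (not called, edgeR adjusted p = 0.461). Trbj2-6, annotated as a pseudogene, had 1.24, 0.964 and 1.26 CPM in PEox and 1.17, 1.22 and 1.08 CPM in Vehicle (edgeR adjusted p = 0.999). The CPM of the groups overlapped for both. J segments are 46 to 61 bases long and reads 150 bases, so a J count can come from a read that lies mostly outside the segment. J levels are therefore not ranked beside those of longer segments. Ratios of J to C counts depend on segment length and are given only by group, and that comparison is open to the length and GC trend too.

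**Figure D3:**
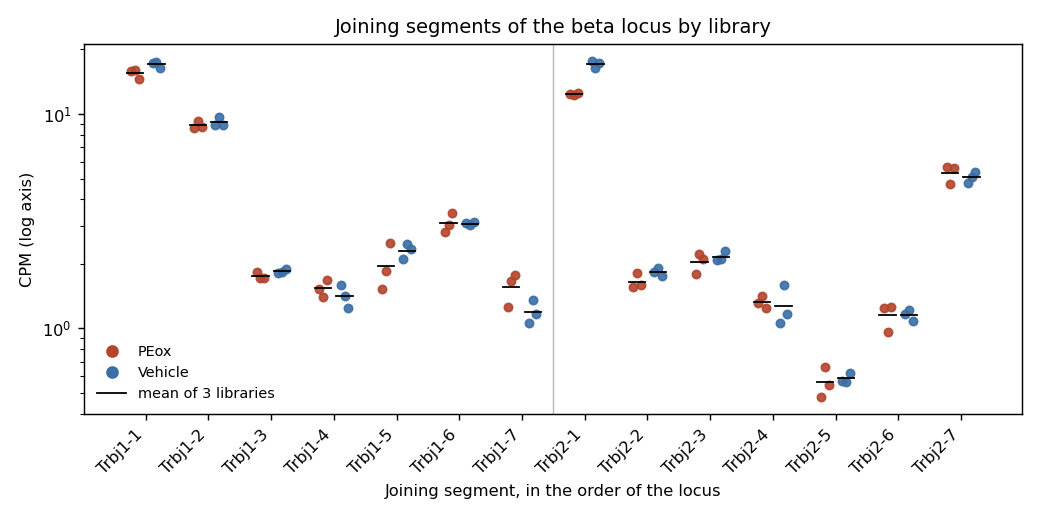
CPM (log axis) of the 14 beta joining segments in each library, in the order of the locus, PEox left and Vehicle right of each position, with a bar at the mean of 3 libraries; the vertical line separates the clusters. Trbj2-1 has PEox values between 12.3 and 12.5 CPM below Vehicle values between 16.4 and 17.7, and most other segments overlap.

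Set against the C counts of the locus, beta J counts were higher in PEox. There were 7.77, 8.07 and 8.44 J counts per 100 C counts in PEox libraries 1 to 3, and 6.88, 6.92 and 6.75 in Vehicle libraries 1 to 3. The ranges did not overlap. The difference carries no test, and the ratio was not computed with the length and GC trend taken out. Within the first cluster the ratio was 11.6 to 12.7 in PEox and 9.29 to 10.04 in Vehicle, and within the second it was 5.34 to 5.77 in PEox and 4.93 to 5.10 in Vehicle.

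Beta V segments had few counts beside the C segments. The 13 V members summed to 122, 126 and 67 counts in PEox libraries 1 to 3 and to 315, 252 and 275 counts in Vehicle libraries 1 to 3. Of all 35 beta V rows, 9, 9 and 7 had a count in the PEox libraries, and 17, 16 and 17 in the Vehicle libraries. For every 100 beta C counts there were 0.279, 0.291 and 0.158 V counts in PEox and 0.525, 0.465 and 0.457 in Vehicle, ranges that stood apart.

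None of the 11 tested beta V segments was called, where 18.8% of all tested genes were called lower and 18.3% higher. All 11 log2 fold changes were below 0, from -2.58 to -0.38. Some of them, such as Trbv16 and Trbv19, passed the low count filter through their Vehicle counts. The shared sign is therefore no finding. Trbv1, the most counted, had 27, 19 and 7 counts in PEox and 31, 32 and 61 counts in Vehicle (log2 fold change -1.17 ± 0.75, SE; adjusted p = 0.278, edgeR). Its count in PEox library 1 came close to those of Vehicle libraries 1 and 2. Trbv16 had 3, 13 and 0 counts in PEox and 52, 23 and 27 in Vehicle (-2.58 ± 1.23, SE; adjusted p = 0.146, edgeR), and was called without PEox library 2 (-4.34, adjusted p = 0.0484), as was Trbv19 (-7.23, adjusted p = 0.0265; -2.16 with all libraries). Trbv13-2 had 13, 17 and 0 counts in PEox and 38, 39 and 22 in Vehicle (edgeR adjusted p = 0.328). Trbv13-3, which was not tested, had 0 counts in each PEox library and 21, 8 and 5 in the Vehicle libraries. At this depth a count of a few reads decides each of these values.

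**Figure D4:**
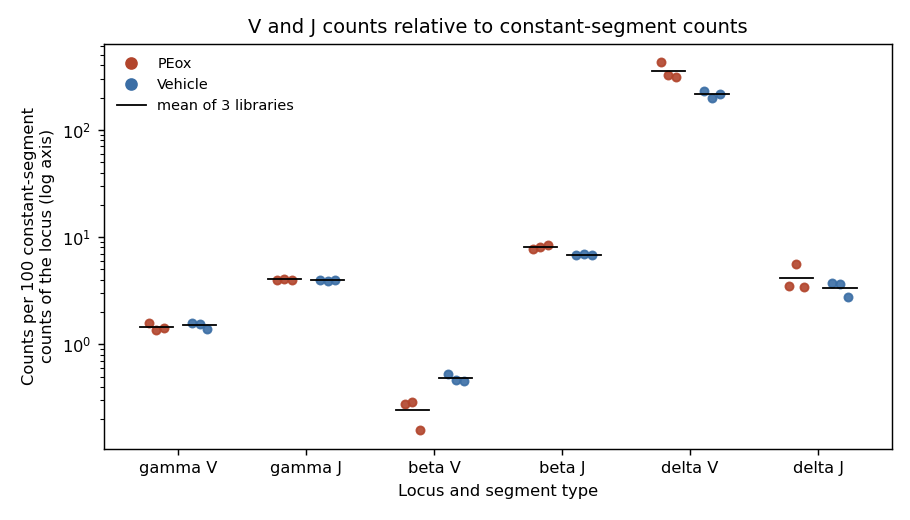
V and J counts per 100 constant-segment counts of the same locus (log axis) in each library, PEox left and Vehicle right, with a bar at the mean of 3 libraries. Gamma V overlaps between the groups, gamma J lies at 4.01 to 4.09 in PEox and 3.94 to 3.97 in Vehicle, beta V lies at 0.158 to 0.291 in PEox below 0.457 to 0.525 in Vehicle, and delta V lies at 309 to 426 in PEox above 199 to 230 in Vehicle.

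In the delta locus the constant segment was counted less than a single V segment. Trdc had 6.26, 6.94 and 7.72 CPM in PEox and 16.2, 16.8 and 16.1 CPM in Vehicle. It fell by 1.23 ± 0.14 in log2 units (SE; edgeR, adjusted p = 0.000297), with all PEox libraries below all Vehicle libraries. Trdv4, the V segment that mouse gamma delta T cells pair with Tcrg-V5 or Tcrg-V6, had 26.1, 22.3 and 23.5 CPM in PEox and 34.0, 31.8 and 32.0 CPM in Vehicle. Its log2 fold change was -0.44 ± 0.10 (SE; edgeR, adjusted p = 0.00943), and -0.09 once the length and GC trend was taken out (adjusted p = 0.553).

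Per kilobase of annotated exon, Trdv4 reached 54.0 CPM in PEox and 73.4 CPM in Vehicle, where Trdc reached 1.80 and 4.23. These levels depend on the annotated exon lengths, 444 bases for Trdv4 and 3865 for Trdc. Trdv4 held 98.1% to 98.7% of the delta V counts in PEox and 91.5% to 95.4% in Vehicle. Per 100 Trdc counts, delta V counts numbered 426, 327 and 309 in PEox libraries 1 to 3 and 230, 199 and 215 in Vehicle libraries 1 to 3; the ranges did not overlap and carry no test.

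Of the remaining delta V segments Trdv2-2 fell. It had 27, 22 and 16 counts in PEox and 146, 83 and 137 counts in Vehicle, a wide gap at low counts (log2 fold change -2.43 ± 0.44, SE; adjusted p = 0.00316, edgeR). Trdv2-1 shares 36.2% of its 150-base windows with Trdv2-2, and was counted in Vehicle libraries 1 and 3 only, with 34 and 27 counts. Trdv5 had 3, 0 and 3 counts in PEox and 20, 4 and 5 in Vehicle; it overlaps Trdc on the other strand, so its reads and those of Trdc cannot be told apart without strand. The J segments Trdj1 and Trdj2 had 3 to 13 counts per library in PEox and 10 to 28 in Vehicle, and neither was called (edgeR adjusted p = 0.35 and 0.654).

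The alpha locus was almost without counts. Trac, the alpha constant segment that every alpha beta T cell transcribes, had 68, 37 and 26 counts in PEox libraries 1 to 3 and 106, 45 and 67 counts in Vehicle libraries 1 to 3, or 1.16, 0.626 and 0.430 CPM against 1.67, 0.793 and 1.07 CPM. The groups overlapped, and the log2 fold change of -0.67 ± 0.55 was not called (SE; edgeR, adjusted p = 0.403). Per kilobase of annotated exon Trac stood at 0.788 CPM in PEox and 1.26 CPM in Vehicle, beside 640 and 844 CPM for Trbc2 and 1045 and 1702 CPM for Tcrg-C1.

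The 60 alpha J rows together had 4, 11 and 0 counts in PEox and 18, 4 and 6 in Vehicle, and the 128 alpha V rows had 38, 63 and 31 in PEox and 90, 73 and 74 in Vehicle. Segments of T cells with an invariant alpha chain were at or near 0: Traj33 and Trav1, of mucosal-associated invariant T cells, had 0 counts, and Traj18, of invariant natural killer T cells, had 1. The V segments of the invariant natural killer T cell chain, Trav11d and Trav11, had 10 and 8 counts in all, of which 6 and 4 were in PEox library 2 and the others in Vehicle libraries 2 and 3. The 3 alpha V members had 30 to 38 counts each and were not tested. Trav15d-1-dv6d-1 and Trav15n-1 were identical over their 352 aligned bases and had the same counts in 5 of 6 libraries; Trav6n-7 and Trav6d-7, identical over 358 bases, differed by 1 count in 1 library. Counts of such copies are uncertain, because reads of one match the other.

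By level per kilobase, the constant segments stood in the same order at the top in both groups: Tcrg-C1, then Trbc2, Trbc1 and Tcrg-C4. Trbc1 and Tcrg-C4 were the closest neighbours, at 379 and 342 CPM per kilobase in PEox and 492 and 474 in Vehicle. Tcrg-C2 followed at 30.4 in PEox and 54.0 in Vehicle. The lowest were Tcrg-C3, Trdc and Trac, of which Tcrg-C3 spread too widely among Vehicle libraries for a firm place. The place of Trdc depends on its 3865 annotated exon bases, beside 650 to 985 for the other C segments. Its mean was 6.97 CPM in PEox, above 2.08 for Tcrg-C3, and 16.35 CPM in Vehicle, below 22.15.

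The CD3 chains, which carry the receptor chains to the surface and signal for them, all fell. Over all tested genes, 18.8% were called lower and 26.5% lay lower in PEox without overlap. Cd3g had 26.7, 27.5 and 25.4 CPM in PEox and 67.0, 76.7 and 76.7 CPM in Vehicle (log2 fold change -1.47 ± 0.09, SE; adjusted p = 1.04e-05, edgeR). Cd3d had 6.37, 6.67 and 5.04 CPM in PEox and 20.0, 20.8 and 16.5 CPM in Vehicle, Cd3e 3.37, 2.74 and 1.74 CPM against 6.69, 7.86 and 8.82, and Cd247 14.3, 12.9 and 12.5 CPM against 26.5, 24.2 and 22.6. None of these overlapped between the groups, and the log2 fold changes were -1.67, -1.58 and -0.88 (edgeR adjusted p = 0.00015, 0.00279 and 0.000709). ILC3s of the mouse are known to express several of them, so they do not mark T cells alone.

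Of 24 genes of receptor assembly and signalling, 23 were tested; 11 fell, 2 rose and 10 were not called, with a median log2 fold change of -0.57, where 18.8% of all tested genes were called lower and 18.3% higher. The coreceptor genes of cytotoxic T cells were close to absent: Cd8a had no count in any PEox library and 0.652 to 1.19 CPM in Vehicle, and Cd8b1 had 0 to 0.0991 CPM in PEox and 0.317 to 1.37 in Vehicle, both called lower (edgeR adjusted p = 0.00178 and 0.0397). Cd8a, Cd8b1 and Rag2, all among the 11, passed the low count filter through their Vehicle counts, so their direction is no finding. Cd4, the coreceptor of helper T cells that mouse lymphoid tissue inducer cells also express, rose, with 17.5, 16.8 and 9.98 CPM in PEox and 7.41, 10.5 and 7.43 CPM in Vehicle (log2 fold change 0.80 ± 0.25, SE; adjusted p = 0.0363, edgeR), although PEox library 3 lay below Vehicle library 2.

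Signalling genes went both ways. The kinase genes Lck and Zap70, which relay receptor signals, fell by 0.85 and 0.57 on the log2 scale (edgeR adjusted p = 7.6e-05 and 3.41e-05), whereas the phosphatase gene Ptpn22 rose by 0.67 (adjusted p = 8.28e-05). The adaptor genes Lat and Lcp2 had log2 fold changes of -0.01 and 0.06 and were not called (edgeR adjusted p = 0.913 and 0.643). Ubash3a and Sit1, which restrain receptor signals, had log2 fold changes of -1.40 and -1.66 (edgeR adjusted p = 0.00584 and 0.000281), and the kinase gene Fyn 0.06 (adjusted p = 0.661). Of the other genes typical of T cells, Cd5, Cd6, Cd28, Themis and Trat1 were not called, with group means of 0.617, 2.36, 6.36, 2.16 and 1.20 CPM in PEox and 0.878, 2.27, 7.66, 2.71 and 2.93 CPM in Vehicle.

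Of the recombination genes, Rag1 and Rag2 were at low levels. Rag2, a subunit of the recombinase that cuts receptor loci, had 3, 0 and 2 counts in PEox and 38, 49 and 61 counts in Vehicle and was called lower (log2 fold change -4.76 ± 1.05, SE, adjusted p = 0.00789, edgeR). Rag2 passed the low count filter through its Vehicle counts, so its direction is no finding. Its partner Rag1 had 0.102, 0.897 and 0.0661 CPM in PEox and 0.787, 0.476 and 0.302 CPM in Vehicle, groups that overlapped (edgeR adjusted p = 0.74). Dntt, which encodes the enzyme that adds bases at the joints, had 10.1, 5.31 and 7.95 CPM in PEox and 9.45, 8.44 and 8.82 CPM in Vehicle, and was not called (adjusted p = 0.595). Ptcra, the partner of the beta chain in developing T cells, had too few counts to be tested. B cell genes, which share recombination with T cells during development, were lower in the same libraries by the sums given above, and their part in the Rag2 values was not tested.

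**Figure D5:**
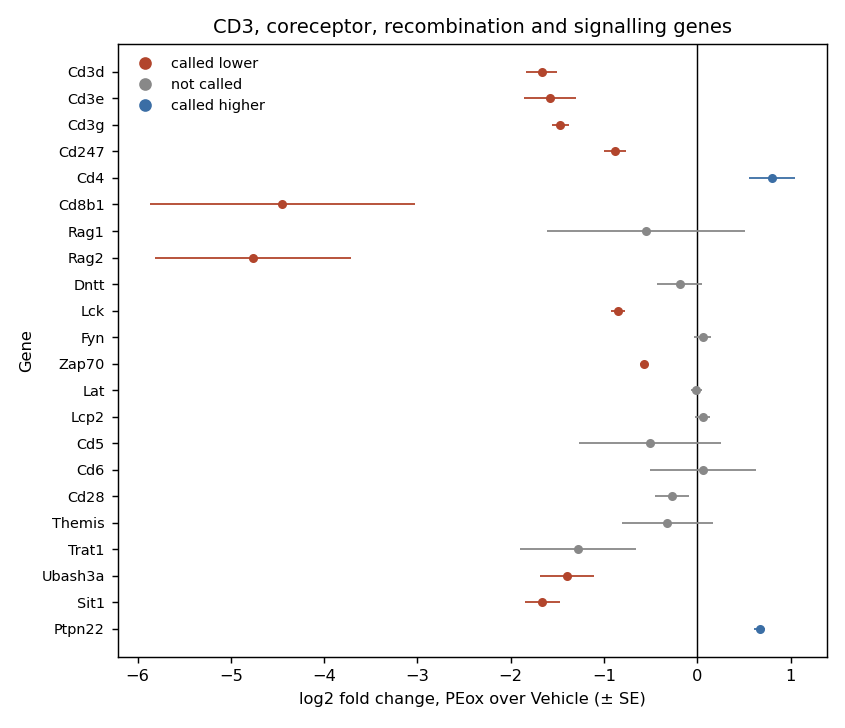
Log2 fold change of PEox over Vehicle with its standard error (horizontal axis) for the genes of receptor assembly and signalling that were tested and had a count in PEox. Cd3d, Cd3e and Cd3g lie between -1.67 and -1.47, Ptpn22 lies at 0.67, and Lat and Lcp2 lie near 0; Cd8a, at 0 in PEox, and the untested Ptcra are left out.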

How the data were processed

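Per the labels' protocols, libraries were sequenced as paired reads of 150 bases on a NovaSeq instrument, cleaned with fastp and aligned with HISAT2 2.0.5; edgeR 3.22.5 is named as well, per the submitters' processing notes. Read counter, genome build, annotation and strandedness are not stated, and coordinates are therefore left out. The authors deposited raw counts per gene, 1 column per library, and 0 columns were left unused. The name table of GENCODE M21 matched 55141 of 55401 identifiers; segment classes, exon lengths and sequences came from the same release, which need not be the annotation the authors counted on. The table lists 10 gamma members under older symbols that start with Tcrg, and these were included.

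With edgeR 4.0.16 in R 4.3.3, filterByExpr kept 18253 genes, TMM factors lay between 0.951 and 1.05, and the groups were tested by robust quasi-likelihood F with no further term, at an adjusted p of 0.05. The SE is the size of the log2 fold change over the square root of F. Sums, shares and ratios over members carry no test. Per library, 3 counts equal 0.047 to 0.053 CPM; floors cover counting error only, since no molecular identifiers separate PCR copies. No libraries agreed within sampling noise (chi-square per gene 15.9 to 36.5 within groups and 247 to 319 between groups). The procedure was tested on simulated data.

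The members, lists and alternatives were chosen with earlier results of these data known. Named segments were all C segments, the 5 most counted V and J segments of each locus, up to 3 more per locus and type by p-value, segments of T cells with invariant receptors, the 3 nearest to the minimum on each side, and the genes of the pathway list, of which 1 is not reported here. Alternatives were RLE and library size scaling, no filter, a filter of 1 CPM in 3 libraries, a block for the replicate number, omission of single libraries, DESeq2 1.42.0, limma-voom (limma 3.58.1), minima of 10 and 100 counts, every segment row, and, added after the data were seen, removal of each library's loess trend on length and GC content with a span of 0.5.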

Additional observations from a re-analysis of the deposited data

How the results depend on the processing

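Of the 16 segments called lower, 12 were called lower under every alternative other than removal of the length and GC trend; Trbj2-1, Trgj4, Trgv2 and Tcrg-C3 each lost the call under at least 1. The number called lower was 13 to 18 with 1 library omitted at a time, 16 with the replicate block, 16 with DESeq2 and 15 with limma-voom, and 0 were called higher in each of these. Library size scaling moved the median of all genes to 0.14 and the share of calls that were higher from 49.3% to 61.9%; it gave 13 lower segments and ratios of PEox to Vehicle sums of 0.709 for gamma J, 0.693 for gamma C, 0.989 for beta J and 0.838 for beta C, against 0.645, 0.631, 0.900 and 0.763 with TMM. Trbj1-2 turned to 0.09 under it.

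After removal of the length and GC trend, chosen after seeing the data, 9 segments were called lower and 2 higher (Trbj1-2 at 0.52 and Trbj2-7 at 0.67), and 41.4% of all calls were higher. The log2 fold changes turned to 0.01 for Trbc1, 0.02 for Trbc2, 0.27 for Trbj1-1, 0.36 for Trbj1-5, 0.12 for Trbj2-1, 0.45 for Trbj2-2, 0.01 for Trgj4 and 0.07 for Tcrg-V6, while Tcrg-V5 (-0.36, edgeR adjusted p = 0.154), Trgv2 (-0.59, 0.188) and Trdv4 (-0.09) kept their sign but not the call. Only 30 tested genes were at most 61 bases long, of which 19 were J segments, so the trend is poorly anchored for J segments. The direction also turned without 1 library for Tcrg-V7 (-0.03 to 0.44), Trbj1-6 (-0.07 to 0.08) and Trbv20 (-1.06 to 0.20), none of them called.

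The replicate numbers pair no samples by the labels, and deviations of same-numbered libraries correlated at 0.00541, 0.0135 and -0.00583. Depth limits the beta V, alpha and most delta segments, which had few counts per library.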

Other observations

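The D segments, which were not among the members, had few counts. Trbd1, the D segment ahead of the first beta J cluster, had 41, 31 and 33 counts in PEox libraries 1 to 3 and 44, 35 and 43 in Vehicle libraries 1 to 3, and was not called (log2 fold change -0.17, edgeR adjusted p = 0.842). Trbd2 had 2 to 4 counts in PEox and 4 to 6 in Vehicle. The delta D segments Trdd1 and Trdd2 had 0 and 5 counts in all.

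Some alpha V rows near the minimum were counted in 1 group only. Trav15-1-dv6-1, just below the minimum, had 7, 4 and 17 counts in PEox and 0 in each Vehicle library, whereas Trav15d-1-dv6d-1, 96.0% identical to it over 396 bases, had 4, 5 and 0 counts in PEox and 16, 3 and 10 in Vehicle. Trav14n-1 had 0 counts in each PEox library and 1, 10 and 17 in the Vehicle libraries. These segments were not tested. Gm31887, the gene annotated opposite the V segments of the first gamma cluster, had a log2 fold change of -0.91 (adjusted p = 0.000658, edgeR).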
